A study of Homo sapiens with 62 samples.

Results

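The DCLK1-high and DCLK1-low states of AsPC-1 control cultures were compared across genes in 15 SLAM-seq libraries, 7 DCLK1-high and 8 DCLK1-low, out of 62 libraries in the series. AsPC-1 is an established human pancreatic ductal adenocarcinoma (PDAC) line used as a model of the classical subtype. All 15 cultures carried the genotype FKBP12-F36V-FLAG-KLF5_sgEndogenousKLF5, in which a degradable copy of the transcription factor KLF5 had been delivered by lentivirus and the endogenous gene cut by Cas9. The 4 h controls received DMSO or dTAGv-1-NEG (NEG), the inactive analogue of the degrader dTAGv-1, and the 12 h controls received DMSO. Libraries were grouped by their DCLK1 level, in counts per 1000000 reads of a library (CPM), as high above 10 CPM and low under 5 CPM. The grouping includes 1 DMSO library at 4 h, 4 NEG libraries and 2 DMSO libraries at 12 h in the high class, and 2, 4 and 2 such libraries in the low class. In replicate labels of 4 h libraries, the digit before the point was taken as the experiment. Control libraries of experiment 2 (replicate labels 2.1 and 2.2) were left out of both classes by the rule and are described separately. Because the classes were chosen by a measured gene, differences between them are descriptions of these libraries, without a test, and the SD covers only the spread between libraries of a class.

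DCLK1 encodes doublecortin-like kinase 1, a microtubule-associated kinase best known in the gut and pancreas as a marker of tuft cells, which are rare chemosensory epithelial cells. Pancreatic tumour cells of the classical subtype keep a glandular programme with intestinal and gastric secretory genes, whereas basal-like cells express squamous keratins. Classical markers were expressed in both classes, with HNF4A, a hepatocyte nuclear factor of endodermal epithelium, at 10.2 to 34.2 CPM and the adhesion molecule CEACAM6 at 203.7 to 401 CPM. The identity of the line in each library was taken from the labels and was not tested. The squamous keratin KRT5 stayed at or under 0.453 CPM in all 15 libraries, against 105 to 415 CPM in 8 control libraries of the basal-like line T3M-4, which were scaled by their own totals.

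DCLK1 (ENSG00000133083.15; GRCh38 chromosome 13, 35768652 to 36131382, minus strand, annotated 3′UTR 35768652 to 35774537) was the gene that set the classes. Its level ran from 19.8 to 43.6 CPM, with a median of 29.5, in the 7 high libraries, and from 0.441 to 1.55 CPM, with a median of 0.693, in the 8 low libraries. No control library lay between 1.55 and 19.8 CPM, and the thresholds of 5 and 10 CPM fell in that gap. In bulk RNA, a smaller share of DCLK1-expressing cells and less DCLK1 RNA per cell cannot be told apart.

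DPEP1, PKIB and ARTN followed the same split. DPEP1 (ENSG00000015413.10; chromosome 16, 89613308 to 89638456, plus strand), a dipeptidase anchored at the cell surface, ran from 18.3 to 29.4 CPM in DCLK1-high libraries and from 0.136 to 1.08 CPM in DCLK1-low ones. PKIB (ENSG00000135549.16; chromosome 6, 122471917 to 122726373, plus strand), an inhibitor of cAMP-dependent protein kinase A (PKA), ran from 12.7 to 25.5 CPM against 0.321 to 0.943 CPM. ARTN (ENSG00000117407.17; chromosome 1, 43933320 to 43937240, plus strand), the RET ligand artemin of the GDNF family, ran from 16.8 to 23.8 CPM against 0.434 to 1.85 CPM. Counts of ARTN in these control libraries were all multiples of 3. All 3 genes lay higher in every high library than in any low one, and the 4 genes lie on 4 different chromosomes. On the log2(CPM + 0.1) scale, which understates the difference of low genes, the high class lay above the low class by 5.17 ± 0.25 (SE, n = 7 and 8) for DCLK1, 5.44 ± 0.31 for DPEP1, 4.75 ± 0.21 for PKIB and 4.42 ± 0.24 for ARTN.

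**Figure D1:**
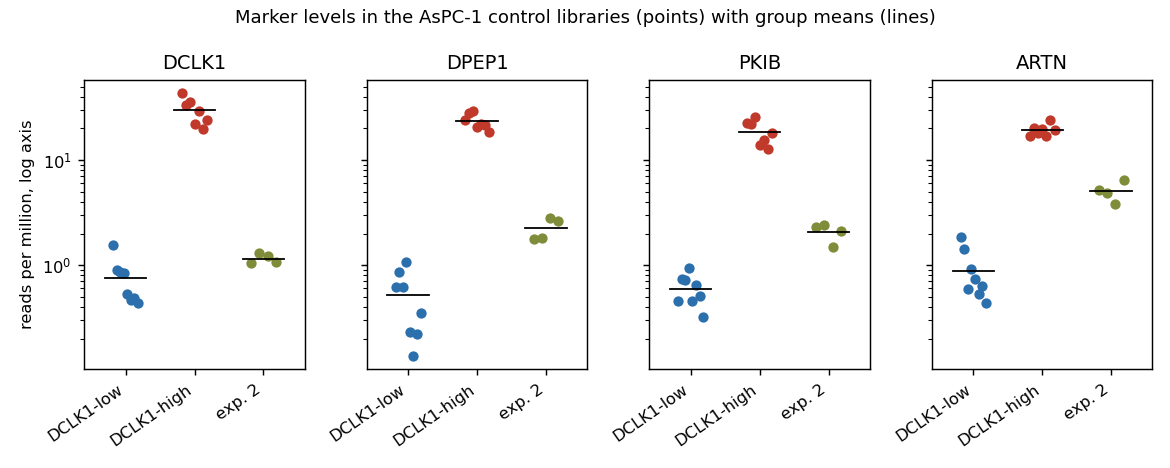
Levels of DCLK1, DPEP1, PKIB and ARTN in CPM (log axis) in 8 DCLK1-low, 7 DCLK1-high and 4 experiment 2 control libraries of AsPC-1, with 1 point a library and a line at each mean. Every DCLK1-high library lies above 12 CPM for all 4 genes and every DCLK1-low library lies under 2 CPM, while the experiment 2 controls lie between the classes for DPEP1, PKIB and ARTN and near the low class for DCLK1.

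Both classes were present in each batch and with each control agent. Batch 1 held 3 high and 4 low libraries and batch 2 held 4 and 4 (two-sided Fisher's exact test, p = 1, adjusted over 2 tests p = 1). DMSO libraries were 3 high and 4 low, and NEG libraries 4 and 4 (two-sided Fisher's exact test, p = 1, adjusted p = 1). The class did follow the last digit of the replicate label, a pattern seen after the values were known: all 8 libraries numbered 1 or 2 were low and all 7 numbered 3 or 4 were high. Each batch and each control agent held libraries of both kinds of digit. The outcome of the 2 tests therefore followed from the labelling, and nothing is read from them. Both tests also counted each library as independent. The labels do not say what those digits stand for, nor whether the edited cells were 1 clone or whether libraries of a class came from separate cultures, so the SD may cover technical spread only. Totals of all reads were 96330434 to 196686986 in high and 82676553 to 168121404 in low libraries. Each was counted as a separate library, as labelled. Pairs of the same class and arm differed by more than the sampling of reads in each of 7 pairs, with a chi-square per degree of freedom of 22.3 to 1092, which covers counting error only and does not tell separate cultures from repeat preparations of one RNA.

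Across 11156 genes with a mean of at least 1 CPM, 193 genes (1.73%) lay higher and 530 genes (4.75%) lay lower in DCLK1-high cultures, where every high library had to lie beyond every low library and the difference in mean log2(CPM + 0.1) had to reach 1. Since the classes were drawn from the same libraries, nothing is read from these shares. Without the size limit, 485 genes lay above and 836 below. The median difference over all genes was -0.03. Large differences were mostly toward lower levels, as 107 genes lay lower by more than 3 on the log2 scale and 14 lay higher by more than 3. In 109 of the 530 lower genes the high class averaged under 0.5 CPM, and in 9 of the 193 higher genes the low class did so.

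**Figure D2:**
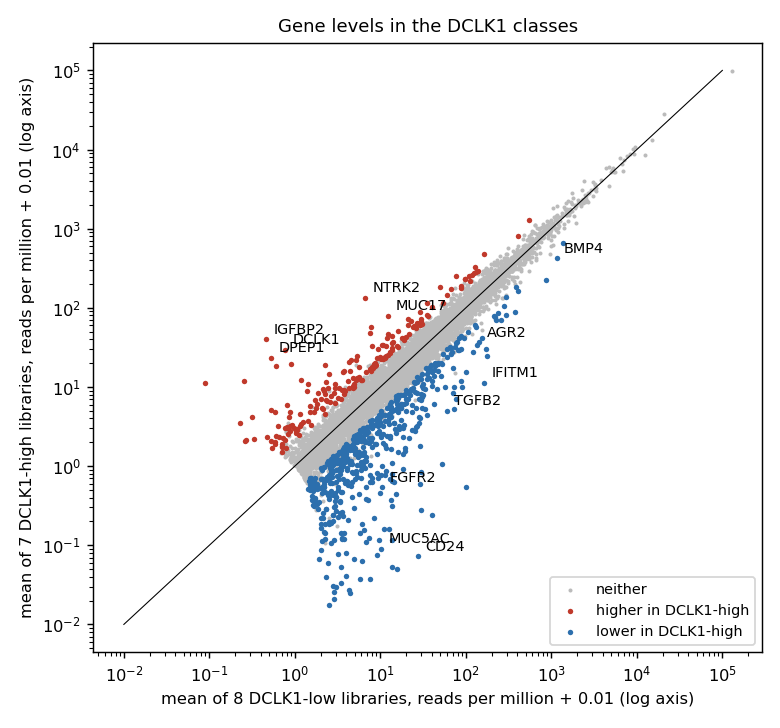
Mean level of each of 11156 genes in 7 DCLK1-high libraries against 8 DCLK1-low libraries, in CPM plus 0.01 on log axes, with 193 higher genes in red, 530 lower genes in blue and the line of equal level. Several blue points lie far from the line, with CD24 at 27.7 CPM in low and 0.0628 CPM in high libraries.

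Among genes higher in DCLK1-high cultures, several of the leading ones encode secreted and surface signalling proteins. IGFBP2, a secreted binding protein of insulin-like growth factors, had a median of 34.4 CPM (19.7 to 60.8) in high libraries and 0.396 CPM (0.0816 to 0.92) in low ones, a difference of 6.33 ± 0.43 on the log2 scale. NTRK2, the receptor tyrosine kinase TrkB that binds BDNF, had a median of 134 CPM (95.8 to 177) against 6.38 CPM (3.72 to 10.7), and was the most abundant of the 15 leading genes. The groups did not overlap for either gene. ONECUT3, a homeobox factor of the HNF6 family, had a median of 11.6 CPM in high and 0.074 CPM in low libraries. ALKAL2, a ligand of the receptor ALK, was at 11 ± 3.6 CPM (SD, n = 7) against 1.43 ± 1.28 (n = 8), and the extracellular matrix protein tenascin-C (TNC) at 19 ± 3.66 against 2.23 ± 1.09 CPM. PLCB1, a phospholipase C that acts downstream of G protein-coupled receptors, was at 12.2 ± 4.1 against 1.18 ± 0.279 CPM. GASK1B, the sodium-proton exchanger SLC9A2, the neuropeptide S receptor NPSR1, the membrane mucin MUC17 and the B7-family ligand HHLA2 complete the set, with differences of 5.28, 3.15, 2.95, 2.94 and 2.90. The last 2 were sizeable in both classes, MUC17 at 53.4 to 121 CPM against 4.06 to 21.4, and HHLA2 at 31.9 to 74.8 CPM against 2.09 to 15.

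Among genes lower in DCLK1-high cultures, several abundant transcripts were close to 0. CD24, a small mucin-like surface glycoprotein, ran from 20.1 to 41.7 CPM in low libraries and from 0.0195 to 0.105 CPM in high ones, a difference of -7.40 on the log2 scale. DMBT1, a secreted scavenger receptor of mucosal surfaces, ran from 22 to 72.8 CPM against 0 to 0.505 CPM. In a library with no read, 3 reads would correspond to 0.0153 to 0.0363 CPM at these depths, so such a gene may be present below that level. CD24 is known to have near-identical copies in the genome, so its level is uncertain where reads are shared among copies.

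Transcription factors, RNA-binding proteins and signalling proteins were among the other leading lower genes. CELF2, a splicing regulator, was at 15.6 ± 6.54 CPM (SD, n = 8) in low and 0.0408 ± 0.0476 (n = 7) in high libraries. ANKRD1, a well-known target of YAP and TAZ, was at 13.8 ± 6.41 against 0.0427 ± 0.0233 CPM. GLIS3, a zinc finger factor of pancreatic development, was at 9.63 ± 2.54 against 0.107 ± 0.0818 CPM, and the forkhead factor FOXP1 at 13.7 ± 7.83 against 0.106 ± 0.0925 CPM. The sphingomyelinase SMPD3, the planar polarity genes PRICKLE1 and PTK7, the EGF receptor antagonist LRIG1, the gel-forming mucin MUC5AC, the basigin relative EMB, the elastase inhibitor PI3 and C3orf14 had log2 differences of -6.38, -5.58, -5.62, -5.89, -5.52, -5.47, -5.40 and -5.53. Counts of LRIG1 were all multiples of 2.

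Many interferon-induced genes lay lower in DCLK1-high cultures. These genes are switched on by type I and II interferon through STAT and IRF factors, and many encode proteins that block viral RNA. Of 17 measured members, 10 lay lower in DCLK1-high cultures and 0 higher, beside 4.75% and 1.73% of all genes compared. The median difference was -1.81, beside -0.03 over all genes compared. IFITM1, a membrane protein that restricts viral entry, had a median of 142 CPM (88.8 to 307) in low libraries and 12.3 CPM (8.46 to 12.8) in high ones. IFIT3, a member of the IFIT family of RNA sensors, had a median of 73.7 CPM (48.7 to 100.2) against 9.89 CPM (8.68 to 11.8). For both genes every DCLK1-high library lay below every DCLK1-low one. IFIT2 was at 23.4 ± 4.95 against 2.84 ± 0.764 CPM, and RIGI, the cytosolic receptor of viral RNA, at 14.4 ± 4.94 against 3.45 ± 0.607 CPM. IFIT1, IFI6, IFI44, ISG15, IFITM2 and IFITM3 had differences between -3.38 and -1.39. IFITM1, IFITM2 and IFITM3 are close paralogs, so reads could be split among them, and counts of IFIT1 and ISG15 were all multiples of 2 and those of IFI6 of 4.

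The other 7 members were called in neither direction, and 6 of them are described here. The transcription factors IRF1 and IRF9 differed by -0.25 ± 0.20 and -0.10 ± 0.33 (SE), and their libraries overlapped. The antiviral enzymes OAS1 and OAS3, abundant in both classes, differed by -0.21 ± 0.25 and -0.37 ± 0.16. MX1 differed by -1.44 ± 0.96 and BST2 by 1.03 ± 0.57, and both had means under 3 CPM.

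Promoters of the interferon-induced genes are shown because 10 of them lay lower together. The interferon-stimulated response element was searched as GAAANNGAAA on both strands (TTTCNNTTTC on the other), from 250 bases before to 50 after each start in RefSeq promoters of GRCh38.p14. It was found in 996 of 27305 promoters (3.65%), and in 227 of 8831 promoters of genes compared here (2.57%). Of the 10 lower interferon-induced genes, 8 had a promoter in the table and 7 of these held the letters; of the 7 members called in neither direction, 6 had one and 3 held them. Among all lower genes 25 of 412 promoters (6.07%) held it, and among all higher genes 5 of 147 (3.4%). Stretches of 30 bases upstream of the start are given 5′ to 3′ on the gene's strand, with the matched letters in capitals.
IFIT1 (chr10:89392497-89392526, plus strand): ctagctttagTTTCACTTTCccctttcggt
IFIT3 (chr10:89327831-89327860, plus strand): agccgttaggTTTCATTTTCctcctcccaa
ISG15 (chr1:1013374-1013403, plus strand): catgcctcggGAAAGGGAAAccgaaactga
IFI6 (chr1:27672329-27672358, minus strand): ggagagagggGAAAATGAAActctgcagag
IFI44 (chr1:78649759-78649788, plus strand): gggcacactgagTTTCAGTTTCctttctct
IFITM1 (chr11:313990-314019, plus strand): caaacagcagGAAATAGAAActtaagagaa
IFITM3 (chr11:320893-320922, minus strand): caaatgccagGAAAAGGAAActgttgagaa
A match describes these letters only, and binding was not measured.

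Receptor tyrosine kinases split into 1 higher and 4 lower genes of 23 measured, with a list median of -0.29. Over all genes 1.73% lay higher and 4.75% lower, and these shares stand beside the counts of each list that follows, from which nothing is read. NTRK2 was the higher one. FGFR2, a receptor of fibroblast growth factors, ran from 7.12 to 15.1 CPM in low and from 0.0196 to 1.21 CPM in high libraries. EPHB6, a kinase-inactive ephrin receptor, ran from 19.7 to 40.4 CPM against 1.04 to 2.77 CPM, and EPHA4 was at 3.05 ± 0.93 against 0.26 ± 0.149 CPM. PTK7, a pseudokinase of WNT and planar polarity signalling, was at 9.19 ± 8.37 against 0.0645 ± 0.0663 CPM, and 1 low library was at 29.6 CPM with the next at 8.78. EGFR, the most abundant receptor, was at 660 CPM in both classes, and MET was at 282 CPM in high and 186 CPM in low libraries, which did not overlap but differed by 0.60 ± 0.10, under the size limit.

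Of 5 measured Frizzled genes, which encode receptors of WNT ligands, 4 lay lower. FZD1, FZD2, FZD6 and FZD7 differed by -2.29 ± 0.20, -3.82 ± 0.42, -1.03 ± 0.22 and -1.65 ± 0.21, whereas FZD5 differed by 0.25 ± 0.12. Of the lower ones, FZD6 was the most abundant, at 26.8 ± 5.69 in low and 13.5 ± 4.06 in high libraries. The ligand WNT10A lay higher, at 4.52 ± 1.07 against 1.15 ± 0.529 CPM. The feedback gene AXIN2 was at 3.65 CPM in low and 1.34 CPM in high libraries and its ranges overlapped. In all, 1 of 18 measured WNT genes lay higher and 4 lower.

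Several TGF-beta and BMP ligands lay lower. TGFB2 had a median of 58.4 CPM (42.7 to 84.9) in low libraries and 4.87 CPM (3.74 to 6.27) in high ones. BMP4 was the most abundant of them, with a median of 1107 CPM (832 to 1574) against 396 CPM (279 to 633). Both ligands lay lower in all high libraries. BMP2 was at 3.21 ± 0.753 against 0.22 ± 0.0639 CPM, and GDF15 at 3.24 ± 0.821 against 0.893 ± 0.281 CPM. The ligands TGFB1 and BMP7 were called in neither direction, with differences of 0.02 ± 0.26 and 0.22 ± 0.11. ID2, a direct target of BMP and SMAD signalling, was at 50.8 ± 18.6 against 13.9 ± 1.47 CPM, while its relative ID1 differed by -0.65 ± 0.11. LTBP1, which holds latent TGF-beta in the matrix, lay higher, at 30.5 ± 5.33 against 9.49 ± 1.69 CPM. None of the 9 measured receptors was called, with differences from -0.62 ± 0.12 for BMPR2 to 0.26 ± 0.18 for TGFBR1, and the transducers SMAD2, SMAD3 and SMAD4 differed by between -0.17 and -0.06. Of 25 measured members, 1 lay higher and 5 lower.

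Classical identity genes differed in both directions. HNF4A was at 28 ± 4.87 CPM in high and 12.9 ± 2.85 in low libraries. The pioneer factor FOXA1 was at 0.905 ± 0.231 against 3.43 ± 0.681 CPM, and CREB3L1, a membrane-bound factor of secretory cells, at 6.98 ± 2.56 against 75.8 ± 37.1 CPM. The other 14 of 17 measured factors were called in neither direction, GATA6 at 4.09 against 5.08 CPM and PPARG at 181 against 172 CPM among them. Among 15 measured classical tumour markers, MYO1A, a brush border myosin, and CDH17, the intestinal LI-cadherin, lay higher, by 1.92 ± 0.25 and 1.105 ± 0.14. Of the same list 5 lay lower. AGR2, a disulfide isomerase that folds mucins, ran from 119 to 159.7 CPM in low and from 27.4 to 48.9 CPM in high libraries, and REG4, SPINK4, ANXA10 and PRR15L had differences between -2.24 and -1.44. The other 8 were called in neither direction, among them the secreted trefoil peptide TFF1 at 0.90 ± 0.62 and CEACAM5 at -1.07 ± 0.27.

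Of 7 measured mucins, 1 lay higher and 3 lower. MUC1, a membrane mucin of most glandular epithelia, was at 169.9 ± 66.6 CPM in low and 30.3 ± 9.76 in high libraries. MUC13 was at 23.7 ± 12 against 4.84 ± 1.75 CPM. MUC5AC, the gel-forming mucin of the stomach surface, ran from 2.71 to 22.3 CPM against 0.0415 to 0.127 CPM. MUC17, found on intestinal brush borders, was the 1 mucin that lay higher, and MUC3A, its neighbour on chromosome 7, differed by 0.75 ± 0.15.

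Basal-like markers gave no single direction. Of 13 measured genes 3 lay higher and 2 lower. AREG, an EGF receptor ligand, was at 61.5 ± 17.5 CPM in high and 20.8 ± 4.03 in low libraries, the retinol dehydrogenase DHRS9 at 274 ± 60.8 against 124 ± 56.3, and the glucose transporter SLC2A1 at 221 ± 30.7 against 112 ± 46.1. S100A2 lay lower, at 15.6 ± 3.31 against 39.7 ± 8.54 CPM, and was at 1554 to 2440 CPM in T3M-4. SCEL was at 0.0489 ± 0.0376 against 2.41 ± 2.01 CPM. TP63, the master factor of squamous epithelium, stayed at or under 0.177 CPM in all 15 libraries and was at 18.3 to 31.5 CPM in T3M-4.

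Of 22 listed tuft cell markers, 4 passed a mean of 1 CPM, and of these DCLK1 alone was called. POU2F3, the master factor of tuft cells, stayed at or under 0.315 CPM in high and 0.999 CPM in low libraries, the channel TRPM5 at or under 0.0996 CPM and the arachidonate lipoxygenase ALOX5 at or under 0.0254 CPM. PLCG2 was at 3.69 CPM in high and 7.5 CPM in low libraries, and SOX9 at 12.1 against 22.1 CPM, with overlapping ranges. The other kinases with a doublecortin domain did not reach 1 CPM. Of 8 measured stem and progenitor markers, CD24 and LRIG1 lay lower and none higher, with LGR5 at 5.09 against 5.85 CPM. Of 3 measured neuroendocrine and neuronal markers, MAP2 and ENO2 lay lower, while the most abundant, the neuronal tubulin TUBB3, was at 28.5 CPM in high and 26.9 CPM in low libraries, with overlapping ranges, and the neuroendocrine granule protein CHGA had 0 reads in all 15 libraries.

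Of 24 measured members of cAMP and PKA signalling, 2 lay higher and 3 lower. PKIB lay higher while PKIG, a second inhibitor of PKA, was at 15.1 ± 5.5 CPM in low and 2.59 ± 0.608 in high libraries. AKAP12, a scaffold that binds PKA, was at 284 ± 48.5 CPM in high against 132 ± 14.1 in low libraries, and the scaffold AKAP7 and the phosphodiesterase PDE7A differed by -1.09 ± 0.15 and -1.08 ± 0.10. The catalytic subunits PRKACA and PRKACB differed by -0.29 ± 0.24 and -0.22 ± 0.21.

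Surface enzymes and adhesion genes showed scattered differences. The aminopeptidase ANPEP (CD13), another brush border enzyme, ran from 39 to 93.8 CPM in high and from 4.36 to 12.3 CPM in low libraries. NAALADL1, another listed membrane peptidase, differed by -1.98 ± 0.22. CDH3 (P-cadherin) was at 7.95 ± 1.08 CPM in low and 0.624 ± 0.246 in high libraries, while the desmosomal cadherin DSC2 lay higher, at 64.2 ± 7.89 against 26.6 ± 10.3. NECTIN1 lay higher by 1.81 ± 0.12, and the leukocyte integrin ITGB2 lay lower, at 11.8 ± 3.19 against 87 ± 29.8 CPM. ITGB2 was the 1 called gene of 21 measured integrins and tetraspanins. Of 14 measured claudin and tight junction genes, CLDN1 and MARVELD3 were called lower, with differences of -1.16 and -1.70, and 0 were called higher. The list median was 0.10 and 10 of the 14 differences were positive. Among these, CLDN7 differed by 0.98 without overlap, under the size limit. Of the RET axis, ARTN lay higher and SPRY1, a feedback inhibitor of receptor tyrosine kinases, differed by -1.85 ± 0.30, and RET itself did not reach 1 CPM.

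Detoxifying enzymes, imprinted genes and further lists held a few called members. ALDH3A1, an aldehyde dehydrogenase, was at 372 ± 73.1 CPM in low and 89.4 ± 13 in high libraries, and AKR1B10, HMOX1 and GPX2 differed by -2.58, -1.09 and -1.40, which makes 4 of 21 measured genes of drug and xenobiotic metabolism. Of 6 imprinted genes, the adaptor GRB10 lay higher, at 251 ± 52.2 against 76.6 ± 13.2 CPM, and PEG10 and SGCE, which neighbour each other on chromosome 7, differed by -1.90 and -1.23. The antigen presentation regulator NLRC5 and the invariant chain CD74 differed by 1.46 and -3.49. TAGLN, ESRP2, CXCL16 and BEX3 differed by -1.82, -1.15, -1.04 and -3.23, and CDKN1A, the cell cycle inhibitor p21, lay higher by 1.12 ± 0.12. The matrix proteoglycan LUM lay higher, at 13.5 ± 2.97 against 5.65 ± 2.86 CPM, with the fibroblast collagen COL1A1 at 4 reads or fewer and the leukocyte gene PTPRC at 75 reads or fewer in each library. The summed level of the 16 markers of fibroblasts, blood and endothelium was 23.2 to 29.6 CPM in high and 7.81 to 15.5 CPM in low libraries, and its part in the results was not tested.

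The mitotic, Notch and stress response lists held no called member. All 22 mitotic genes, 12 measured Notch genes and 15 measured genes of the integrated stress and unfolded protein response had 0 members called, with list medians of 0.18, -0.38 and -0.03. MKI67 was at 80.2 CPM in high and 56 CPM in low libraries, with overlapping ranges. Of 17 measured EGF ligands and ERK feedback genes, only AREG was called. RNA levels of the genes whose proteins the study targeted overlapped between the classes. Protein was not measured, and reads were counted over 3′UTR exons. Whether the KLF5 reads came from the cut endogenous gene or from the degradable copy was not tested. KLF5 was at 25.3 ± 2.12 CPM in high and 23.8 ± 4.66 in low libraries, RUVBL1 at 9.79 ± 2.01 against 9.3 ± 1.64, RUVBL2 at 60 ± 13.4 against 57.4 ± 14.8, and CDK9 at 1.15 ± 0.377 against 1.37 ± 0.389.

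**Figure D3:**
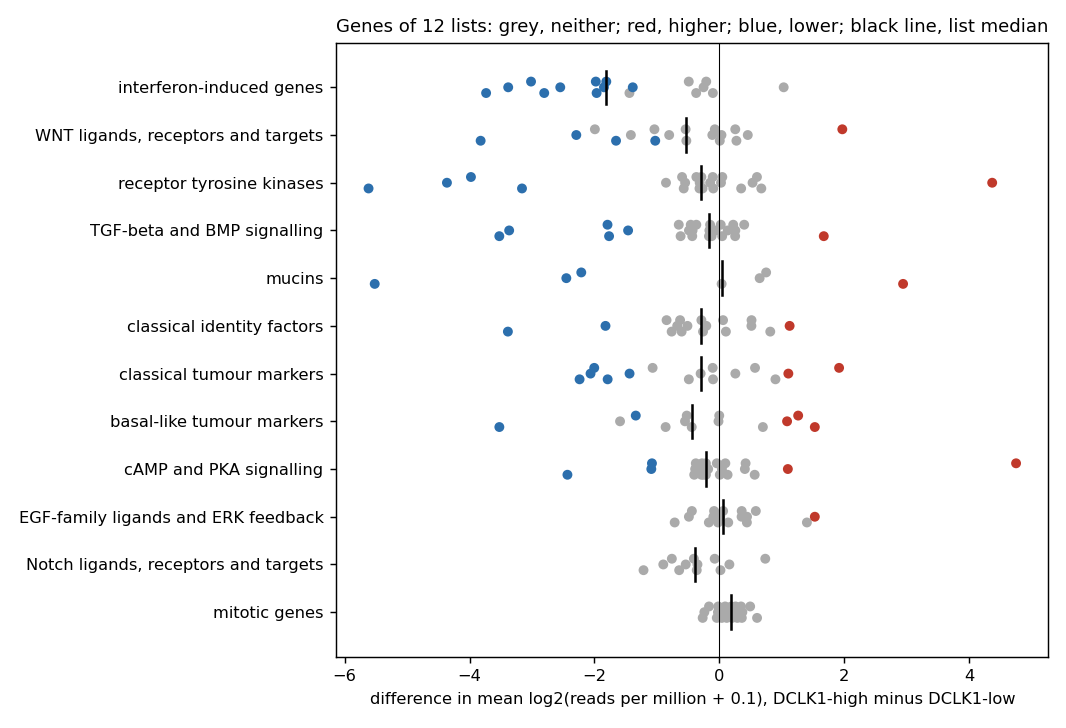
Difference in mean log2(CPM + 0.1), DCLK1-high minus DCLK1-low, for the measured genes of 12 lists, with 1 point a gene, red for genes called higher, blue for genes called lower, grey for neither and a black line at each list's median. Interferon-induced genes reach a median of -1.81 with 10 blue points, while the 22 mitotic genes sit between -0.27 and 0.60 with none called.

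The classes recurred in AsPC-1 libraries given other agents. Experiment 2 here means the 8 libraries of batch 1 with replicate labels 2.1 and 2.2. The 4 NVP-2 libraries are all of batch 2, and both of those labelled 2.1 and 2.2 were kept with the other agents. Among the 18 remaining libraries that received dTAGv-1, CB-6644, which blocks the ATPase of RUVBL1/2, or NVP-2, which blocks CDK9, DCLK1 was at 19.7 to 40.2 CPM in 10 and at 0.302 to 1.54 CPM in 8, with none in between. By the same rule, 171 of the 11156 genes (1.53%) lay higher and 425 (3.81%) lower in the 10 than in the 8. These included 127 of the 193 genes higher in controls and 367 of the 530 lower ones, and 0 of the 723 differed in the opposite direction. Without the 2 NVP-2 libraries labelled 2.1 and 2.2, an alternative chosen after the values were seen, 206 genes lay higher and 435 lower in the 8 high libraries left, 144 and 378 of them among those called in controls. These libraries were again split by DCLK1 and the agents were unevenly spread over the classes, so the recurrence is a description. The last digit of the replicate label again gave the class, except for CB-6644 at 4 h, where replicate 1.2 was high, and NVP-2, where the first digit did.

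ARTN in the 10 DCLK1-high libraries with another agent, at 3.63 to 15.4 CPM, lay below all 7 DCLK1-high controls, at 16.8 to 23.8 CPM. In experiment 3 it was at 19.3 and 23.8 CPM in the 2 high NEG libraries and at 3.63 and 5.24 CPM in the 2 high dTAG libraries. In experiment 1 it was at 18.2 and 20.1 CPM after NEG and at 6.24 and 7.61 CPM after dTAG. After NVP-2 it was at 8.83 and 10 CPM, and after 12 h of CB-6644 at 8.67 and 10.3 CPM against 16.8 and 19.9 CPM with DMSO. The NEG and dTAG libraries did not overlap in either experiment, and no test was made with 2 libraries a side. DCLK1 in the 4 high dTAG libraries lay at 29 to 35.6 CPM, within the range of the high controls.

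The controls of experiment 2 matched neither class as a whole. The 4 control libraries had DCLK1 at 1.04 to 1.29 CPM, DPEP1 at 1.78 to 2.8, PKIB at 1.47 to 2.41 and ARTN at 3.82 to 6.39 CPM. By DCLK1 alone they would count as low. Over the 193 genes higher in DCLK1-high cultures, the experiment 2 mean was nearer the high class for 98 genes and nearer the low class for 95, and over the 530 lower genes it was nearer the high class for 149 and nearer the low class for 381. Single genes took one side or the other almost fully: CD24 (0.0155 to 0.111 CPM), DMBT1 (0 to 0.223) and LRIG1 (0 to 0.0714) were near the high class, whereas CELF2 (15.6 to 21.6), ANKRD1 (11 to 17.5), TGFB2 (56.5 to 64.7) and ITGB2 (81.1 to 158) were near the low class. NTRK2 lay between, at 67 to 82.2 CPM, and IGFBP2 was at 0.0474 to 0.149 CPM, with the low class. CD74 exceeded both classes, at 17.9 to 27.4 CPM.

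Newly made RNA was compared in the same way. In SLAM-seq a pulse of 4-thiouridine marks RNA made during the pulse, and reads of such RNA carry T>C conversions. Taking only T>C reads, scaled to their own total, 111 of the 193 higher genes and 323 of the 530 lower genes met the same rule, and 193 and 529 had the same sign. In a comparison of T>C reads over 11726 genes, 144 lay higher and 422 lower. DCLK1 was at 25.6 T>C CPM in high and 0.575 in low libraries, PKIB at 21.5 against 0.45, and IFIT2 at 13 against 96. T>C reads are a subset of all reads, so these are not separate measurements.

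The labelled read share, the percentage of a library's reads with T>C conversions, averaged 9.16% ± 0.925 (SD, n = 7) in high and 9.9% ± 0.428 (n = 8) in low libraries. Within batch 1 the means were 10% ± 0.488 (n = 3) and 10.1% ± 0.517 (n = 4), and within batch 2 they were 8.53% ± 0.568 (n = 4) and 9.74% ± 0.296 (n = 4). High libraries of batch 2 ran from 7.93% to 9.3% and low ones from 9.38% to 10.1%, without overlap, while the batch 1 ranges overlapped, and whether the batches differ in this was not tested. With other agents the difference, high minus low in percentage points, took both signs. It was -1.28 after 12 h of CB-6644 (2 libraries a class), where the high libraries had 8.1% and 8.25% and the low ones 9.14% and 9.77%. After dTAGv-1 in batch 1 it was 0.46, with 8.23% and 8.67% in high and 7.89% and 8.09% in low libraries, again without overlap. It was -0.40 after dTAGv-1 in batch 2 and 0.22 after 4 h of CB-6644, each with 1 low library, and -0.25 after NVP-2.

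For turnover, each gene's T>C share was divided by that of its library, in 9427 genes with at least 20 T>C reads in every library. The classes did not overlap for 12 genes in the direction of a larger share in high (0.127%) and 27 in that of a smaller share (0.286%). Genes under that minimum in any library were left out, so the count covers 116 of the 193 higher genes and 200 of the 530 lower ones. The median ratio of high to low was 0.977 for these higher genes, 0.985 for the lower ones and 0.983 for all genes. Of the 39 non-overlapping genes 5 were also called by level, PDHB, GALNT10, BCYRN1, CLDN1 and PEG10, of which GALNT10 was named after its values were seen. CLDN1 had a T>C share of 9.88% in high and 16.7% in low libraries, and PEG10 had 7.83% and 10.8%. The long noncoding RNAs SNHG29 and ZFAS1, both hosts of small nucleolar RNAs, had larger shares in high libraries, SNHG29 7.64% against 5.61% and ZFAS1 14.4% against 12%, with ratios of 1.47 and 1.28. ARHGEF2, ACADVL and AHSA2P had ratios of 1.43, 1.48 and 1.36. Before division by the library share, the T>C shares of CLDN1, ZFAS1, ACADVL, AHSA2P and SLC9A3 overlapped between the classes. SKP2, the F-box protein that marks p27 for destruction, had 17.7% in high and 25.9% in low libraries with a level difference of 0.13 ± 0.31, and SLC9A3 and BCYRN1 had ratios of 0.668 and 0.739. Counts of SLC9A3 were all even. Its divided shares nearly met, at 1.547 or less in high and 1.549 or more in low libraries.

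PDHB and ARF4 had the lowest ratios, 0.268 and 0.302. PDHB (ENSG00000168291.13; chromosome 3, 58427630 to 58433857, minus strand), a subunit of pyruvate dehydrogenase, had a T>C share of 4.73% to 8.57% (median 6.87%) in high and 21.5% to 34.1% (median 26%) in low libraries. ARF4 (ENSG00000168374.11; chromosome 3, 57571363 to 57598220, minus strand), a small GTPase of the Golgi, had 8.38% to 11.2% against 31.4% to 36.9%. DENND6A (chromosome 3, 57625454 to 57693077, minus strand), named after its values were seen, had 16.2% to 22.7% against 36.7% to 52.6%. Under NVP-2 the share of whole libraries was 1.35% to 1.91%. The 2 low NVP-2 libraries nevertheless had 20.7% and 27% for PDHB and 26.8% and 28.3% for ARF4, while the 2 high ones had 0.375% and 0.659% for PDHB and 0.843% and 0.922% for ARF4. Of 9100 genes with at least 100 reads in each NVP-2 library, these 3 alone had over 15% in both low and under 5% in both high libraries, and 0 genes had the opposite. A further 46 genes had over 15% in all 4 NVP-2 libraries. The 8 experiment 2 libraries of batch 1 had 17.9% to 36.2% for PDHB, beside 21.5% to 34.1% in the low class. Libraries without 4-thiouridine were not analysed here, and whether the T>C reads of PDHB, ARF4 and DENND6A mark newly made RNA was not tested.

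**Figure D4:**
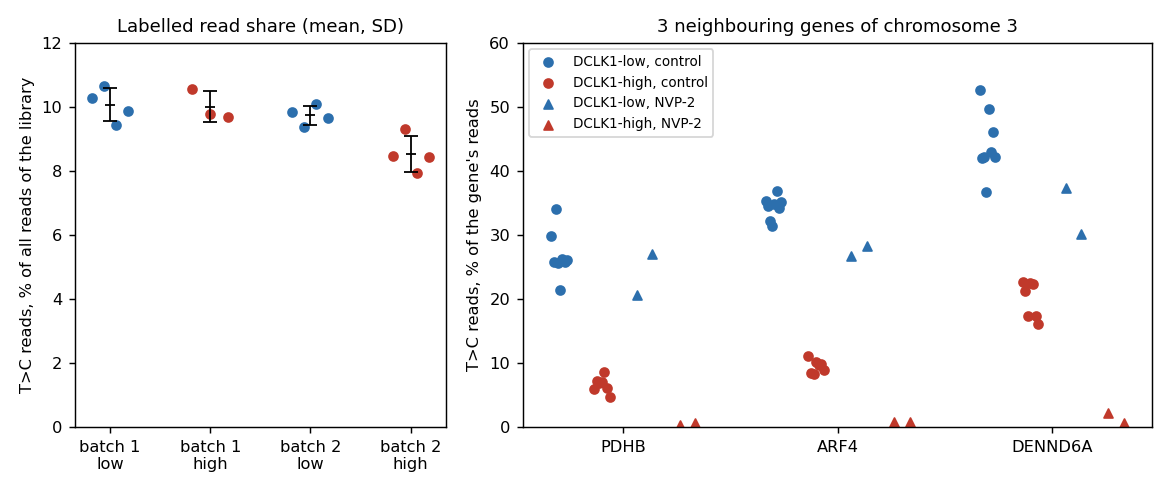
Left, percentage of reads with T>C conversions in 15 control libraries by batch and DCLK1 class, with 1 point a library, the mean and the SD; right, T>C reads as a percentage of the reads of PDHB, ARF4 and DENND6A in control libraries (circles) and NVP-2 libraries (triangles). Low libraries stay above 20% for all 3 genes under NVP-2, where high libraries lie under 3%.

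These 3 genes lie in a region of chromosome 3 where most genes were lower in DCLK1-high cultures, and they were the 3 of its 71 genes with enough T>C reads whose T>C share was smaller without overlap (4.23%, beside 0.286% of all genes). The median ratio over the 71 genes was 1.02, beside 0.983 over all. In blocks of 10 Mb with at least 10 genes, 10 of 279 blocks had a median difference beyond 0.3 in size, 7 above and 3 below. Between 50 and 70 Mb of chromosome 3, 84 of 87 genes had a negative difference, with a median of -0.87, and 23 were called lower, PDHB, LRIG1 and C3orf14 among them. The 5 Mb stretch before it, from 45 to 50 Mb, had a median of -0.34 and that from 40 to 45 Mb one of 0.03, while the 6 genes from 70 to 75 Mb had -1.01. Against the mean of the low class, the median over the genes from 50 to 70 Mb was -0.96 to -0.82 in the high control libraries. It was -0.13 to 0.10 in the low control libraries. The 8 experiment 2 libraries of batch 1 lay at 0.01 to 0.10, with the low class, while the NVP-2 libraries labelled 2.1 and 2.2 lay at or under -0.89, with the high class. With another agent, high libraries lay at -1.02 to -0.81 and low libraries at -0.44 to 0.17. The lowest of these low libraries were those given NVP-2, at -0.44 and -0.24, below the range of the low controls.

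Chromosome X and the first part of chromosome 16 held the blocks with higher expression. On X from 100 to 140 Mb, 85 of 96 genes had a positive difference, with a median of 0.84, and 23 were called higher and 6 lower. On chromosome 16 from 0 to 30 Mb, 195 of 231 genes had a positive difference, with a median of 0.45, and 21 were called higher and 3 lower. High control libraries lay at 0.69 to 0.94 on X and 0.34 to 0.54 on 16, and no low control library exceeded 0.05 and 0.14. With another agent, high libraries lay at 0.73 to 0.90 on X and 0.38 to 0.61 on 16. Low libraries with another agent lay at -0.25 to 0.22 and -0.57 to 0.08. Unlike on chromosome 3, the 8 experiment 2 libraries of batch 1 lay with the high class, at 0.73 to 0.84 and 0.37 to 0.66. The third block below -0.3 was on the long arm of chromosome 16, from 60 to 70 Mb, where 68 genes had a median of -0.31 and 9 were called lower and 0 higher, and where the experiment 2 controls also lay below the low class, with a median of -0.32. The 10 blocks held 4.34% of the genes with a position, 22.9% of the higher and 7.75% of the lower genes. The blocks were picked by the same differences that gave the calls, so nothing is read from these shares. DCLK1, DPEP1, PKIB and ARTN lie outside these blocks.

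**Figure D5:**
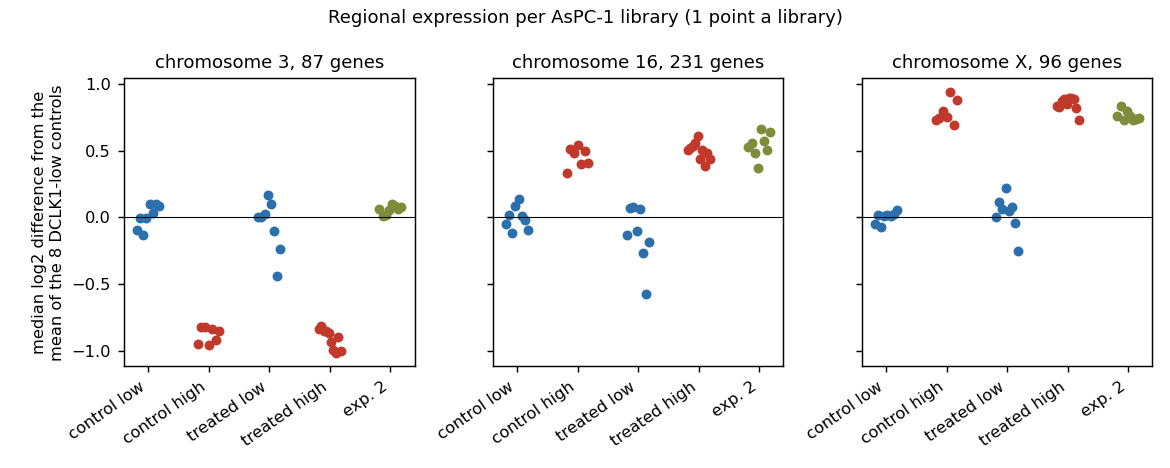
Median log2 difference of each AsPC-1 library from the mean of the 8 DCLK1-low controls over the genes of 3 regions, on chromosomes 3 (50 to 70 Mb), 16 (0 to 30 Mb) and X (100 to 140 Mb), with 1 point a library. High libraries sit between -1.02 and -0.81 on chromosome 3, with or without another agent, while experiment 2 libraries sit near 0 there and with the high class on 16 and X.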

How the data were processed

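SLAM-seq 3′ end libraries were made from AsPC-1 cultures labelled with 4-thiouridine. The authors aligned reads and counted T>C conversions with slamdunk over GENCODE v44 3′UTR exons of hg38, and deposited 2 tables of raw counts, all reads and T>C reads of each gene. Without spike-in RNA, levels are relative to each library's total. Here counts were divided by the library total (CPM), and log2(CPM + 0.1) was averaged per class, with Python 3.11.15, pandas 2.3.3 and scipy 1.17.1. A gene was called where its mean over 15 libraries was at least 1 CPM, the classes did not overlap and the difference reached 1. Because DCLK1 chose the classes, no gene was tested. Fisher's exact test compared class with batch and control agent. The members and gene lists were chosen with earlier results of these data known. Named genes are the 4 markers, the 15 largest differences in each direction with a mean of at least 5 CPM in the higher class, every called member of the lists, the 4 targets of the study and the 5 largest and 5 smallest T>C share ratios with at least 100 T>C reads. Some genes that this rule names, or that are members of a list, are not reported here; counts and medians include them. Other members are given for context. Alternatives were TMM (edgeR 4.0.16) and DESeq2 1.42.0 size factors in R 4.3.3, T>C reads, other filters and pseudocounts, subsets of libraries and leaving out each library. The calling rule was tested on simulated data. The all-reads column of 1 library was not used, since it repeated the T>C column of another. Counts per library total 82676553 to 196686986, so 3 reads correspond to 0.0153 to 0.0363 CPM, which covers counting error only. GEO replicate labels were used as names.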

Additional observations from a re-analysis of the deposited data

Results flagged for a closer look

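Of 232 groups of libraries examined, 11 held a highest or lowest library far from the rest of its class by Dixon's criterion, and chance alone marks about 1 group in 20 (5%). Among DCLK1-low libraries, the DMSO 4 h replicate 1.1 had DCLK1 at 1.548 CPM, with the next at 0.8957. The DMSO 12 h replicate 1 stood apart for 3 genes, PTK7 at 29.56 CPM, PI3 at 36.77 CPM and PRR15L at 3.723 CPM, and the DMSO 12 h replicate 2 was the lowest for AGR2 at 119.0 CPM. Among DCLK1-high libraries, the DMSO 4 h replicate 1.3 stood apart for CD74 at 0.3322 CPM, FZD2 at 0.08305 CPM and ACADVL at 366.0 CPM. NEG replicate 1.4 had S100A2 at 22.49 CPM and EPHA4 at 0.5864 CPM, and NEG replicate 3.4 had AHSA2P at 67.89 CPM.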

How the results depend on the processing

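The counts of 193 higher and 530 lower genes moved with the filter on level and with the libraries used. With a mean of at least 0.1 CPM 799 genes lay lower, and with at least 5 CPM 244 did, since more or fewer genes were compared. Adding the 4 experiment 2 controls to the low class left 98 higher genes and 384 lower ones. Leaving out 1 library at a time gave 187 to 207 higher and 513 to 555 lower genes. TMM scaling gave 226 and 483, and DESeq2 size factors gave 227 and 471, with the median over all genes shifted from -0.03 to 0.04 and 0.06. Blocks beyond 0.3 numbered 10, 16 with T>C reads and 20 in batch 2 alone, and the cause was not tested. The difference in labelled read share was -0.064 in batch 1, -1.20 in batch 2 and -0.97 to -0.53 with 1 library left out. The median T>C share ratio of higher genes ranged from 0.965 to 0.988 with 1 library left out. The exact test of class against batch and that against control agent each gave p from 0.627 to 1 with 1 library left out. Of 2415 values of named genes over 21 settings, 2272 moved by less than the spread between libraries, 142 moved by more and 1 turned, GPX2 at 0.095 with T>C reads. No paired analysis was possible because the DCLK1 classes share no replicate number within an arm. Taking the difference within each of the 4 arms and averaging over arms, an alternative chosen after seeing the data, gave 220 higher and 610 lower genes, 188 and 520 of them shared with the pooled comparison, and all 103 called named genes kept their sign.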
